A study of Mus musculus with 8 samples.

Results

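The hypoxia and glycolysis genes are a list of 39 mouse genes that sense oxygen, take up and break down glucose, or are known transcriptional targets of the hypoxia-inducible factors (HIFs). The genes were taken by symbol from the gene counts of 8 RNA-Seq libraries, which list 24052 symbols. Of the 39 genes, 37 were found under the listed symbol, and 31 of these had enough counts to be tested among 11672 genes in all. The other 6 (Epas1, Egln3, Slc2a3, Eno1, Slc16a3 and Adm) had 0 to 9 counts per library. Ca9 and Ca12 were read under their mouse symbols Car9 and Car12. Car9 was tested and is given beside the 31, and Car12 had at most 7 counts in a library and was not tested.

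The libraries come from mTEC 3.10, a medullary thymic epithelial cell (mTEC) line of the C57BL/6 strain, and from E6, 1 clone of that line carrying mutations in the autoimmune regulator gene Aire made with Crispr-Cas9. The labels give the genotype of E6 as Aire +/-, while the methods of the study describe mutations of both alleles. Each cell type was sequenced without thymocytes (before adhesion) and after 12 h of co-culture with 50 thymocytes per mTEC (after adhesion), with 2 libraries per condition. Labelled culture time was 24 h in 3 libraries (E6 replicate 1 in both conditions, WT replicate 2 after adhesion) and 12 h in the remaining 5. The protocol text of the E6 libraries before adhesion mentions co-culture, against their titles and source names, which were followed here. The replicates thus differ in labelled culture time in 3 of the 4 conditions, and for WT before adhesion nothing in the labels says whether they were separate cultures. The p-values measure the spread between these libraries, which may be partly technical and which includes any effect of culture time. E6 is a single clone, so the mutation and other differences between this clone and the parental line cannot be told apart.

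The libraries held 13506610 to 20145154 counts on genes. Aire itself had 0 to 3 counts in every library, so the targeted gene could not check the labels at this depth. Of the 17 epithelial and mTEC markers, Epcam, Cdh1, Krt8 and Krt14 had 251 to 2094 CPM (counts per 1000000 counts on genes) in WT and E6, whereas 2 to 8 of the 17 were at 0 counts in a given library. Their sum was lowest in replicate 1 of WT after adhesion (3771 CPM) and lay between 4841 and 5413 CPM in the other 7. Replicate 1 of WT after adhesion stood apart. Its share of alignments on genes was 66.7%, where the remaining 7 had 75.7% to 78.8%, and its counts fell by 0.457 on the log2 scale per 10 percentage points of GC content. The other 7 libraries had GC slopes between -0.0232 and 0.132. Its difference from replicate 2 was also the largest within a condition, with a chi-square of 137.2 per degree of freedom over genes, against 3.41 to 8.19 in the other 3 conditions. Summed thymocyte markers (16 of 25 listed symbols found) were at 0.264 to 1.04 CPM in the 4 libraries before adhesion, 13.1 and 15.6 CPM in WT after adhesion, and 92.3 and 114.4 CPM in E6 after adhesion, with at least 9 of the 16 at 0 counts in each library before adhesion and at most 3 after it. Summed fibroblast markers (9 found) were at 16.0 and 19.7 CPM in E6 after adhesion and at 1.22 to 6.45 CPM in the other 6 libraries. This list shares Thy1 with the thymocyte markers. In E6, Thy1 and Vim were higher after adhesion than before, whereas the collagens Col1a1 and Col1a2 had log2 fold changes of 0.08 ± 0.55 (SE) and 0.06 ± 0.44. Summed myeloid markers (9 found) lay between 48.0 and 80.6 CPM in every library, with 3 to 5 of the 9 at 0 counts before adhesion and 0 to 2 after it. Among them, Lyz2 and Emr1, typical of macrophages, had 0 counts in all 4 libraries before adhesion. After adhesion Lyz2 had 12 and 24 counts in WT and 109 and 88 in E6, and Emr1 had 4 and 5 in WT and 37 and 21 in E6. Cd68 and Itgax were also higher after adhesion, Cd68 by 1.65 ± 0.29 (SE) on the log2 scale in WT and 0.89 ± 0.28 in E6. Csf1r was lower, at -0.38 ± 0.20 in WT and -0.24 ± 0.20 in E6. Cd14 was at -0.56 ± 0.36 in WT and 0.10 ± 0.35 in E6.

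In cells with enough oxygen, prolyl hydroxylases (the Egln enzymes) mark the HIF alpha subunits for destruction through the VHL ubiquitin ligase. When oxygen is low the alpha subunit is stable, pairs with ARNT and binds promoters and enhancers at the hypoxia response element, whose core is spelled ACGTG or GCGTG. Its targets raise glucose uptake and glycolysis, restrain the entry of pyruvate into mitochondria, remove mitochondria by mitophagy and signal for new vessels. The same genes respond to other signals as well, such as growth factors, amino acid supply and MYC.

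The promoters of Bnip3, Narf, Ankrd37 and P4ha2 are printed because these genes differed between E6 and WT in both directions, P4ha2 being higher and the others lower in E6, while all 4 hold the HIF core. The sequences come from RefSeq on the GRCm38.p6 build and are the bases before a start site of the gene, 5′ to 3′ on its strand, with bases inside a GENCODE vM21 exon of the gene left out. Capitals mark ACGTG or GCGTG on either strand, with overlapping matches joined.
Bnip3: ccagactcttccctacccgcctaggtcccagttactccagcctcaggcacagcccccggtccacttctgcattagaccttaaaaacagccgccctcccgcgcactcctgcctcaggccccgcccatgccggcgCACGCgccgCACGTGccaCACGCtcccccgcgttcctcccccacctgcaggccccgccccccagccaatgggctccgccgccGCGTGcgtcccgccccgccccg
Narf: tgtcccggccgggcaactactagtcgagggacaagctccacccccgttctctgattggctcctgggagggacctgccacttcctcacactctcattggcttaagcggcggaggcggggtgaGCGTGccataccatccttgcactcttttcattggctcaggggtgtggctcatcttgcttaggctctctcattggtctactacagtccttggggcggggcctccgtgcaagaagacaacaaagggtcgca
Ankrd37: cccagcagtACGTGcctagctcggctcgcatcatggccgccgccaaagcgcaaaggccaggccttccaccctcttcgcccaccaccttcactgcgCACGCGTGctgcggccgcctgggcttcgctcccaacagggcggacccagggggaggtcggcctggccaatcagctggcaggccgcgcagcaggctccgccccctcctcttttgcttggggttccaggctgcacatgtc
P4ha2: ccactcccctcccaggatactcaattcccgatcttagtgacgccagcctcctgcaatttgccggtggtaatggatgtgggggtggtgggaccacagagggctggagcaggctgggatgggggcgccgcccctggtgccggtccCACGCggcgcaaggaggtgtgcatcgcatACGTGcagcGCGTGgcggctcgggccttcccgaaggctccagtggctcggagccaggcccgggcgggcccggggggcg
The Bnip3 bases are at chr7:138909520-138909756 on the minus strand and hold 4 sites, 1 of which, CACGTG, is also an E-box. Those of Narf are at chr11:121236986-121237235 on the plus strand and hold 1 site. Ankrd37 is shown at chr8:45999868-46000100 on the minus strand with 2 sites, and P4ha2 at chr11:54100674-54100923 on the plus strand with 3 sites. The last 2 lie at start sites inside the span that GENCODE gives the gene, in no exon of it.

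Over the 250 bases before the start, 32 of the 35 listed genes with a window (91.4%) held the core in at least 1 window. Among all 27025 genes with a window in the table, the share was 41.5%, and among the 8841 of them that were tested it was 62.8%. With ACGTG alone, 20 of the 35 genes (57.1%) held it, against 18.5% of all genes and 25.6% of the tested ones. The core was present in the windows of all 4 genes called higher in E6 and of all 5 called lower that had a window. It was also in 19 of the 21 that were tested and not called, so the presence of either core did not separate the directions. ACGTG alone was in all 4 called higher, in 3 of the 5 called lower and in 11 of the 21 not called. A difference between these small groups was not tested. Many of the listed genes are known HIF targets, and the motif shares describe how the list is made up. Bnip3l, Ndrg1, Epas1 and Slc2a3 had no window.

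Comparing E6 with WT, as the mean of their differences before and after adhesion, addresses which of these mRNAs differed between the mutant clone and the parental line. A gene was called when its Benjamini-Hochberg false discovery rate (FDR) in edgeR's quasi-likelihood test was under 0.05 and its fold change was at least 1.5. Of the 31 tested genes, 9 were called, which is 29.0%, and 11.3% of all tested genes were called in this comparison. Lower in E6 were Ankrd37, Aldoc, Narf, Bnip3, Mxi1 and Bnip3l (6 of 31, against 6.13% of all tested genes), and higher were P4ha2, Pfkfb3 and Vegfa (3 of 31, against 5.22%). Car9 was also higher. The called genes lay in both directions, and 17 of the 31 did not pass the FDR limit. The median log2 fold change of the 31 was -0.18, where that of all tested genes was -0.01. All 4 E6 libraries were below all 4 WT libraries in 8 of the 31 genes, against 14.6% of all tested genes, and above them in 4, against 16.7%.

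**Figure D1:**
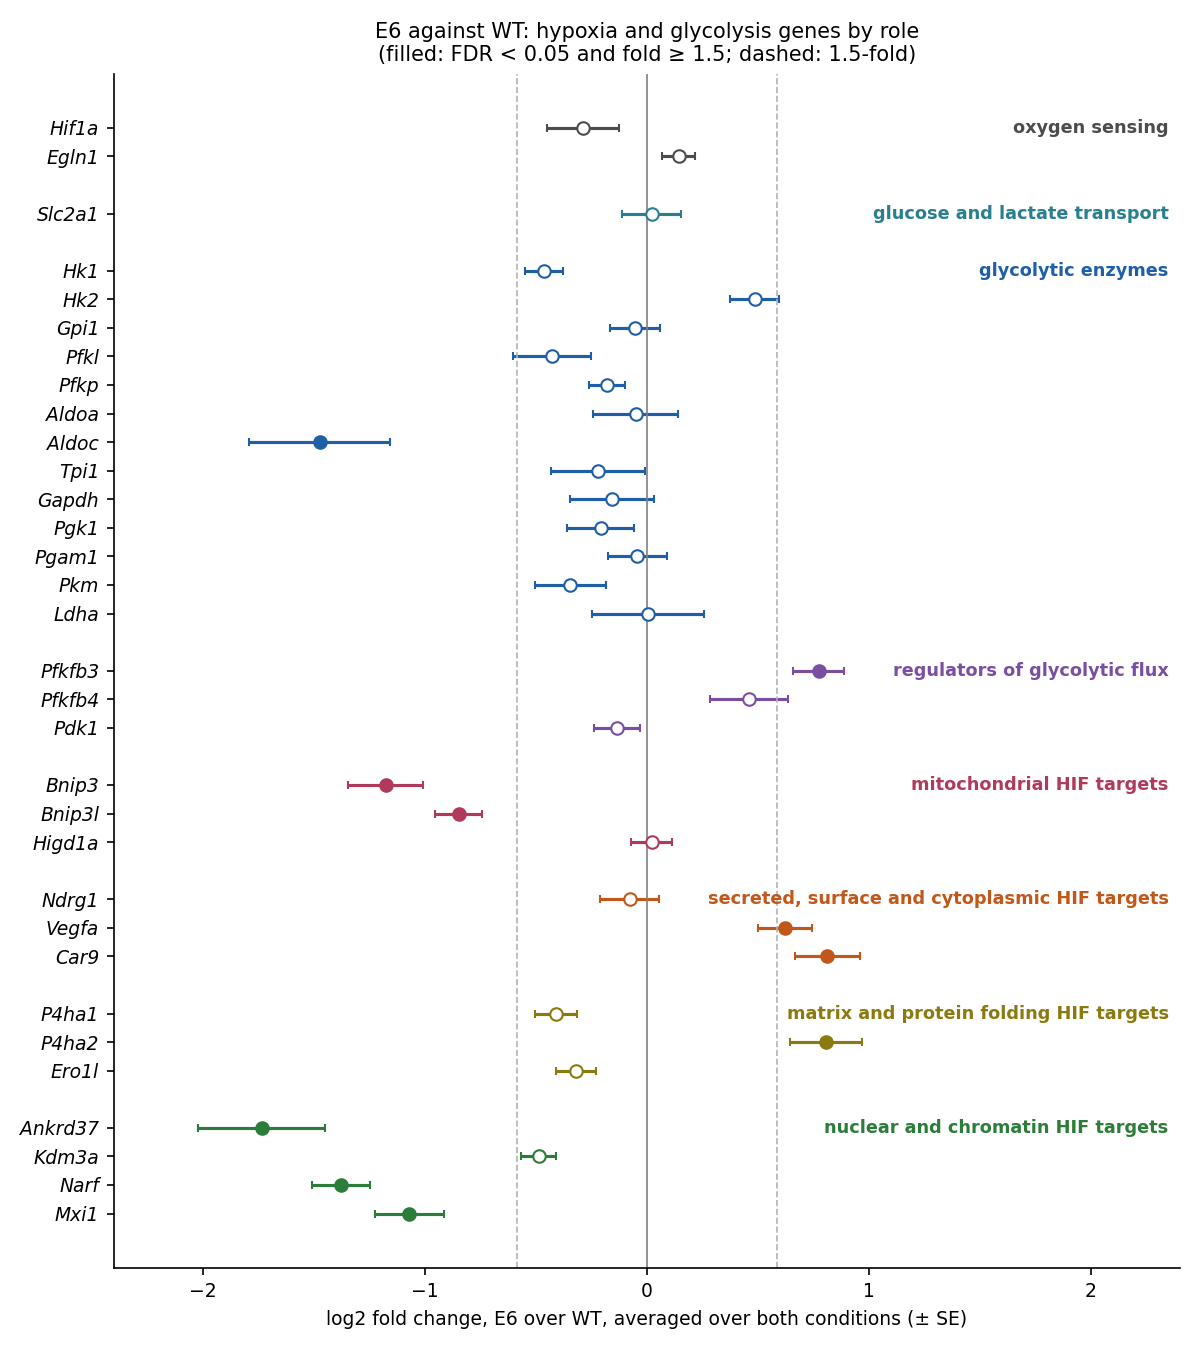
Log2 fold change of E6 over WT, averaged over both conditions, for the 31 tested genes and Car9, grouped by role, with SE bars (8 libraries). Filled points passed FDR under 0.05 and a fold of at least 1.5, and the dashed lines mark 1.5-fold. The filled points are 6 on the lower side, from -0.85 to -1.73, and 4 on the higher side, from 0.62 to 0.81.

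Among the genes that sense oxygen, Hif1a, the inducible alpha subunit of HIF-1 (chromosome 12, 73901375 to 73947530), was abundant. It was at 279 and 281 CPM in WT before adhesion, 387 and 246 CPM in WT after adhesion, 256 and 254 CPM in E6 before adhesion, and 248 and 240 CPM in E6 after adhesion. Replicate 1 of WT after adhesion was the highest, and the E6 libraries overlapped with the range of WT. The log2 fold change of E6 over WT was -0.29 ± 0.16 (SE) with an FDR of 0.247, without replicate 1 of WT after adhesion it was -0.05 (FDR 0.318), and without replicate 2, which left replicate 1 to stand for WT after adhesion, -0.44 (FDR 1.9e-09). HIF activity is mostly set by protein stability, which mRNA counts do not measure. Epas1, the gene of HIF-2 alpha, had 0 counts in 5 libraries and 8, 3 and 1 counts in the remaining 3, all of them after adhesion. Egln1, the main prolyl hydroxylase, lay between 126 and 161 CPM with a log2 fold change of 0.14 ± 0.07 (FDR 0.211), and Egln3, a hydroxylase that HIF itself induces, had 0 counts in 5 libraries and at most 9. Of 16 other genes of oxygen sensing, 14 were tested and none was called, and Arnt, the partner of the alpha subunits, passed the FDR limit alone with a log2 fold change of -0.29.

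Of the glucose transporters, Slc2a1, the ubiquitous one, had 63.3 to 116 CPM, and Slc2a3, typical of neurons, had at most 5 counts in a library. The log2 fold change of Slc2a1 in E6 over WT was 0.02 ± 0.13 (FDR 0.928), and the libraries of the cell types overlapped. The lactate exporter Slc16a3 had at most 3 counts in a library.

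Along glycolysis, levels per length of exon differed widely between enzymes. In CPM per kilobase of exons, the median over the 8 libraries was 837 for Pkm (pyruvate kinase) and 577 for Gapdh, then 280 for Ldha (lactate dehydrogenase), 168 for Pgk1, 156 for Aldoa and 150 for Tpi1. Gpi1 and Pgam1 were at 62.1 and 82.8 on this scale. The enzymes of the committed steps were lower, with 36.3 for Hk2 and 22.7 for Hk1 (hexokinases) and 20.4 for Pfkl and 12.7 for Pfkp (phosphofructokinases), and Aldoc, the aldolase typical of brain, was the lowest tested enzyme at 0.978. The ranges of Pgk1, Aldoa and Tpi1 over the libraries overlapped. Eno1 (enolase) had 0 counts in 7 libraries and 2 in the other. The mouse genome holds near-identical copies of several of these genes, Eno1b among them, and reads that matched several places (11.7% to 17.5% of alignments) were not counted on a gene, so the levels of such enzymes are uncertain, that of Eno1 above all.

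**Figure D2:**
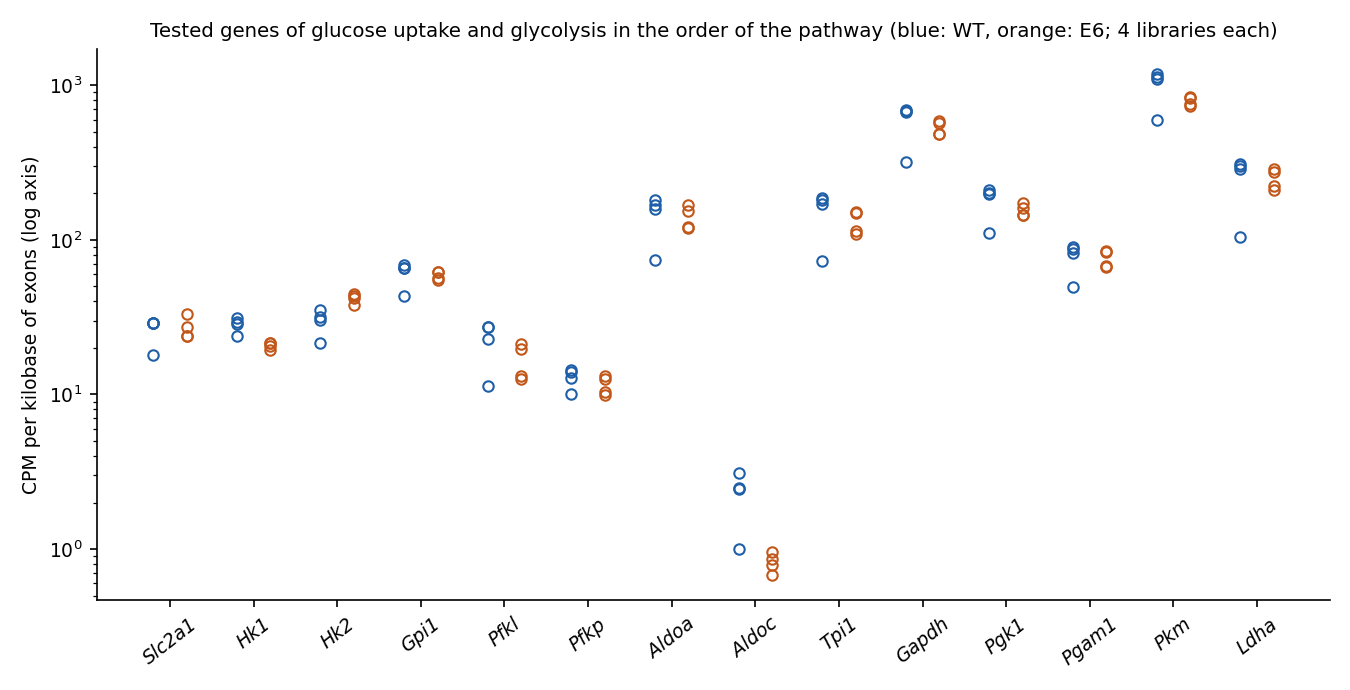
Level per length (CPM per kilobase of exons, log axis) of the tested genes of glucose uptake and glycolysis, in the order of the pathway. Each open circle is 1 library, blue for WT and orange for E6, 4 each. The lowest WT circle of each gene is replicate 1 of WT after adhesion, and Hk1 and Aldoc are the 2 genes in which every E6 circle lies below every WT circle.

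Of the 14 glycolytic enzymes on the list, 13 were tested and 1, Aldoc, was called between E6 and WT, where 11.3% of all tested genes were. Aldoc (chromosome 11, 78322968 to 78327781) was at 8.14 and 8.0 CPM in WT before adhesion, 3.26 and 10.1 CPM in WT after adhesion, 2.83 and 2.22 CPM in E6 before adhesion, and 3.12 and 2.58 CPM in E6 after adhesion. All E6 libraries were lower than all WT libraries, by a narrow margin for replicate 1 of WT after adhesion. Its log2 fold change was -1.47 ± 0.32 (FDR 0.0186), a 2.78-fold lower level. This call was lost in 7 of 16 alternatives, including the 12 h libraries alone (-1.26, FDR 0.0918) and leaving out any 1 of the 6 libraries other than WT after adhesion.

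The hexokinases moved in opposite directions by less than the 1.5-fold limit. Hk1, the constitutive form, was at 203 to 266 CPM in the WT libraries and 166 to 185 CPM in the E6 libraries, without overlap, with a log2 fold change of -0.46 ± 0.09 (FDR 0.0110). Hk2, the inducible form that HIF-1 activates, was at 129 to 209 CPM in WT and 225 to 265 CPM in E6, also without overlap, with a log2 fold change of 0.49 ± 0.11 (FDR 0.0209). After adhesion alone, Hk2 was called at 0.67 ± 0.15 (FDR 0.0376), where replicate 1 of WT was the lowest at 129 CPM. On chromosome 10, which carries Hk1, Pfkl and P4ha1, the median log2 fold change of well-counted genes was -0.37, and that of the 40 genes within 5 Mb of Hk1 was -0.36. The part of this chromosome-wide shift in the change of Hk1 was not tested.

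The other 10 tested enzymes did not pass the FDR limit. Their log2 fold changes were between -0.42 for Pfkl and 0.01 for Ldha. Over the 13 enzymes, the median was -0.18 in all libraries, -0.34 without replicate 1 of WT after adhesion and 0.09 without replicate 2, so its sign depended on which of these 2 libraries was used. The log2 fold change of Pfkl, on chromosome 10 as well, was -0.59 without replicate 1, a value that rests on a single WT library after adhesion. The 119 genes within 5 Mb of Pfkl had a median of -0.27. Gpi1, Aldoa, Tpi1, Gapdh, Pgk1 and Pgam1 each changed sign when replicate 2 of WT after adhesion was left out or the 12 h libraries were used alone. Of 32 other symbols around glycolysis, among them Gpi as another name of Gpi1, 17 were tested. In E6 against WT 3 of them were called, where 11.3% of all tested genes were. Pfkm, the muscle phosphofructokinase, was lower (-0.76 ± 0.19, FDR 0.0271), as was G6pc3, a glucose-6-phosphatase subunit (-0.74 ± 0.16, FDR 0.0210). Pgam5, a mitochondrial phosphatase named after phosphoglycerate mutase, was higher (0.67 ± 0.13, FDR 0.0129).

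Pfkfb3, which makes the fructose 2,6-bisphosphate that activates phosphofructokinase, was higher in E6. Pfkfb3 (chromosome 2, 11471433 to 11554077) was at 10.9 and 11.8 CPM in WT before adhesion, 17.2 and 15.2 CPM in WT after adhesion, 19.9 and 20.9 CPM in E6 before adhesion, and 25.1 and 29.3 CPM in E6 after adhesion. The lowest E6 library was above the highest WT library, and within each cell type the libraries after adhesion were above those before. The log2 fold change of E6 over WT was 0.77 ± 0.12 (FDR 0.00492), a 1.71-fold higher level, and it was called before adhesion (0.86 ± 0.17, FDR 0.0293) and after adhesion (0.68 ± 0.16, FDR 0.0411). This was the one glycolysis gene of the list whose averaged call held in all 16 alternatives. Its relative Pfkfb4 was at 20.2 to 40.5 CPM in WT and 46.2 to 50.0 CPM in E6, without overlap, and did not pass the FDR limit (0.46 ± 0.18, FDR 0.108).

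Pdk1, the HIF-induced kinase that switches off pyruvate dehydrogenase, was at 36.8 to 50.4 CPM over all libraries, with no difference past the limits (-0.13 ± 0.10, FDR 0.405). Of 13 other genes for the fate of pyruvate, 1 was called, where 11.3% of all tested genes were. Pdp2, a phosphatase that reactivates pyruvate dehydrogenase, was lower in E6 (-0.99 ± 0.11, FDR 0.00161). Of 20 genes of the tricarboxylic acid cycle and its isozymes, 1 was called, and this was Idh1, the cytosolic isocitrate dehydrogenase, lower in E6 at -1.35 ± 0.08 (FDR 0.000233). In total, 17 of these 20 genes had a negative log2 fold change and 3 a positive one. Their median was -0.15, against -0.01 for all tested genes, of which 11.3% were called.

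The pair of mitophagy receptors on the list, Bnip3 and Bnip3l, were both lower in E6. Bnip3 (chromosome 7, 138890836 to 138909519) was at 21.8 and 21.0 CPM in WT before adhesion, 25.1 and 39.9 CPM in WT after adhesion, 15.0 and 12.6 CPM in E6 before adhesion, and 8.33 and 11.9 CPM in E6 after adhesion. Every E6 library was below every WT library, and replicate 2 of WT after adhesion, one of the 24 h libraries, was the highest. The log2 fold change was -1.18 ± 0.17 (FDR 0.00434), a 2.26-fold lower level. By condition, it was -0.61 ± 0.24 before adhesion (FDR 0.188) and -1.74 ± 0.24 after adhesion (FDR 0.00912).

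Bnip3l (chromosome 14, 66985239 to 67008877) was at 76.9 and 73.6 CPM in WT before adhesion, 75.1 and 69.3 CPM in WT after adhesion, 50.6 and 40.0 CPM in E6 before adhesion, and 37.6 and 39.3 CPM in E6 after adhesion. The WT libraries lay within 8 CPM of each other and well above those of E6. The averaged log2 fold change was -0.85 ± 0.10 (FDR 0.00263), a 1.80-fold lower level, with calls before (-0.72 ± 0.15, FDR 0.0368) and after adhesion (-0.98 ± 0.15, FDR 0.0121). Higd1a, a HIF target of the inner mitochondrial membrane, was at 17.6 to 23.7 CPM with no difference past the limits (0.02 ± 0.09, FDR 0.896). The averaged calls of Bnip3 and Bnip3l held in all 16 alternatives, the 12 h libraries alone included (-0.93, FDR 0.0395 and -0.95, FDR 0.0187).

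**Figure D3:**
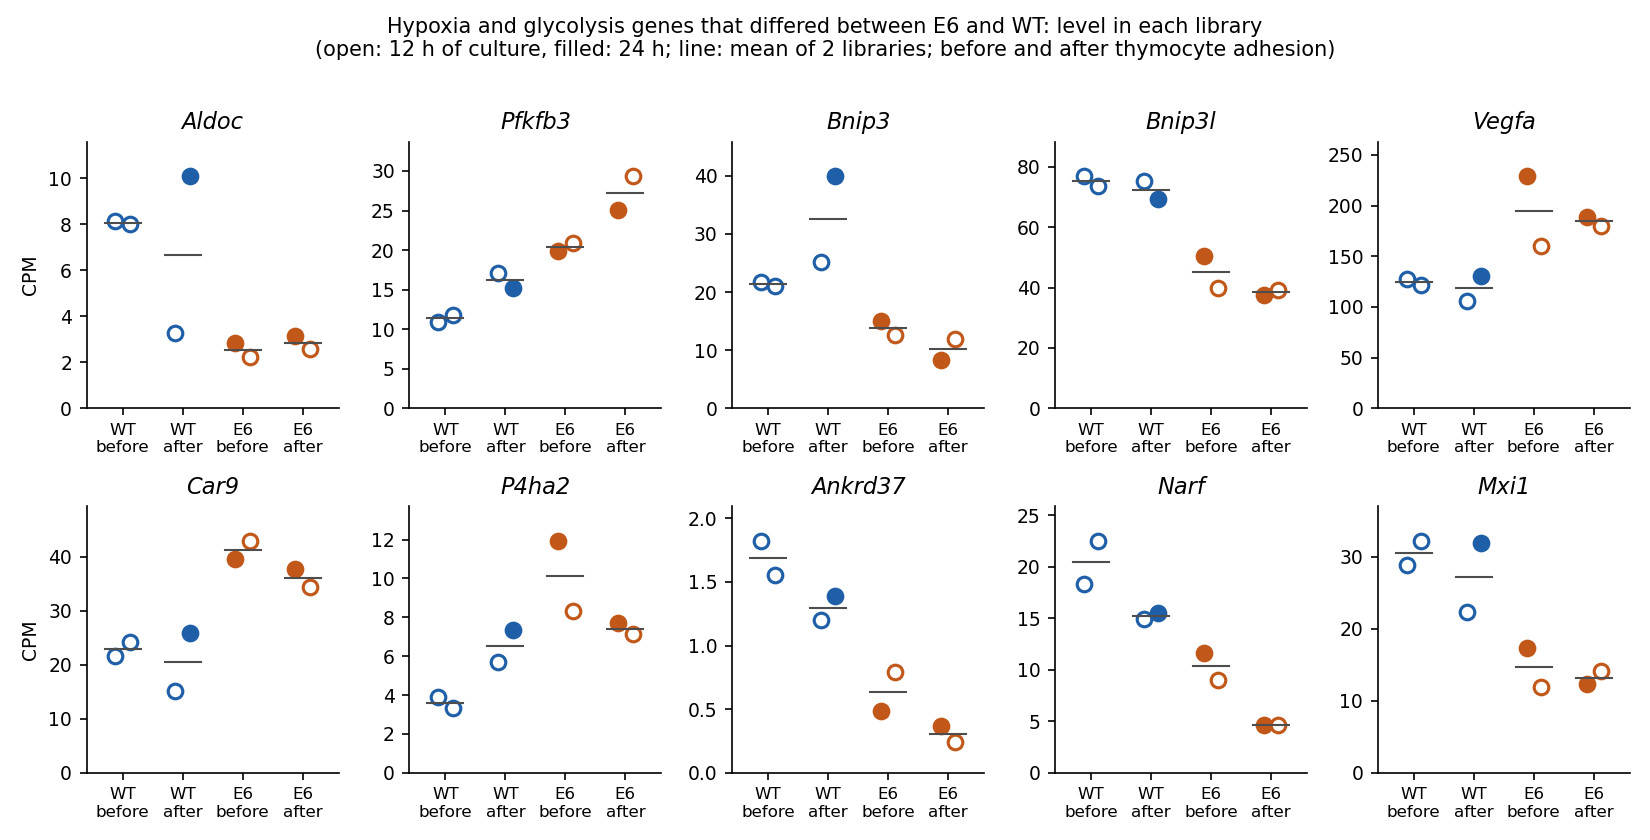
Level in CPM of the 9 called genes and Car9 in each library, by condition, with the y axis from 0. Open circles are 12 h libraries, filled circles 24 h libraries, and lines the mean of 2 libraries. E6 libraries are below all WT libraries in Aldoc, Bnip3, Bnip3l, Ankrd37, Narf and Mxi1 and above them in Pfkfb3, Vegfa and Car9, while P4ha2 overlaps between 7.12 and 7.35 CPM.

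Of the signals and surface enzymes, Vegfa and Car9 were higher in E6. Vegfa, the main growth factor for new vessels (chromosome 17, 46016993 to 46032369), was at 127 and 122 CPM in WT before adhesion, 106 and 131 CPM in WT after adhesion, 229 and 160 CPM in E6 before adhesion, and 189 and 180 CPM in E6 after adhesion. All E6 libraries were above all WT libraries. Its log2 fold change was 0.62 ± 0.12 (FDR 0.0133), a 1.54-fold higher level that is close to the limit of 1.5 and fell under it with culture hours in the model (0.55, FDR 0.0171).

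Car9, the carbonic anhydrase of the cell surface that HIF-1 strongly induces (chromosome 4, 43506966 to 43513729), was at 21.6 and 24.3 CPM in WT before adhesion, 15.2 and 25.8 CPM in WT after adhesion, 39.6 and 43.0 CPM in E6 before adhesion, and 37.7 and 34.4 CPM in E6 after adhesion. The groups did not overlap, and the log2 fold change was 0.81 ± 0.15 (FDR 0.00985), a 1.76-fold higher level. The call of Vegfa was lost in 7 of 16 alternatives and that of Car9 in 3, with FDRs up to 0.0738 and 0.0615. Ndrg1, a cytoplasmic gene of hypoxia and stress, overlapped between the groups (-0.08 ± 0.13, FDR 0.725), and Adm, a vasodilator peptide, had at most 4 counts in a library.

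Prolyl 4-hydroxylases modify collagen, and the 2 alpha subunits on the list differed in opposite directions. P4ha2 (chromosome 11, 54100095 to 54131665) was at 3.89 and 3.33 CPM in WT before adhesion, 5.72 and 7.35 CPM in WT after adhesion, 11.9 and 8.30 CPM in E6 before adhesion, and 7.72 and 7.12 CPM in E6 after adhesion. The cell types were apart before adhesion and overlapped after it. The averaged log2 fold change was 0.81 ± 0.16 (FDR 0.0145), made up of 1.49 ± 0.24 before adhesion (FDR 0.0167) and 0.12 ± 0.22 after adhesion (FDR 0.750). The averaged call was lost in 6 of 16 alternatives, the 12 h libraries alone among them (0.79, FDR 0.130), and the call before adhesion was lost without any 1 of the 6 libraries other than WT after adhesion. P4ha1 (chromosome 10, 59323296 to 59373304) was lower in E6 by less than the fold limit (-0.41 ± 0.09, FDR 0.0228), and the 39 genes within 5 Mb had a median of -0.41. Ero1l, the oxidase of the endoplasmic reticulum that forms disulfides, was likewise under the fold limit (-0.32 ± 0.09, FDR 0.0462).

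Of the 4 listed genes grouped as nuclear and chromatin HIF targets, 3 were called, each lower in E6. Among all tested genes, 6.13% were called lower. Narf, a nuclear protein that binds prelamin A (chromosome 11, 121237253 to 121255856), was at 18.4 and 22.5 CPM in WT before adhesion, 15.0 and 15.5 CPM in WT after adhesion, 11.6 and 9.04 CPM in E6 before adhesion, and 4.59 and 4.66 CPM in E6 after adhesion. The 4 conditions did not overlap, from WT before adhesion, the highest, to E6 after adhesion, the lowest. E6 was 2.60-fold below WT, with a log2 fold change of -1.38 ± 0.13 (FDR 0.000977), and was lower before (-0.97 ± 0.18, FDR 0.0263) and after adhesion (-1.78 ± 0.19, FDR 0.00468).

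Mxi1, which competes with MYC for its partner MAX (chromosome 19, 53310518 to 53375810), was at 28.9 and 32.2 CPM in WT before adhesion, 22.3 and 31.9 CPM in WT after adhesion, 17.4 and 11.9 CPM in E6 before adhesion, and 12.3 and 14.1 CPM in E6 after adhesion. No E6 library reached the lowest WT library. The log2 fold change was -1.07 ± 0.15 (FDR 0.00443), a 2.10-fold lower level, and its size was similar before (-1.05 ± 0.22, FDR 0.0390) and after adhesion (-1.09 ± 0.22, FDR 0.0259). The averaged calls of Narf and Mxi1 held in all 16 alternatives. Their calls before adhesion were lost in 8 (Narf) and 9 (Mxi1) of these, and those after adhesion in 3 and 5.

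Ankrd37, a small ankyrin repeat protein that HIF-1 induces (chromosome 8, 45996902 to 46005707), rested on few reads, with 30 and 21 counts in WT before adhesion, 18 and 28 after it, 7 and 15 in E6 before adhesion, and 6 and 4 after it. In CPM these were 1.82 and 1.55 before and 1.20 and 1.39 after adhesion in WT, and 0.483 and 0.793 before and 0.368 and 0.245 after adhesion in E6. The groups did not overlap, and the log2 fold change was -1.73 ± 0.29 (FDR 0.00727). Without replicate 1 of WT before adhesion, without replicate 2 of E6 after adhesion, and in the 12 h libraries alone it was no longer called, with an FDR of up to 0.108. Kdm3a, a histone demethylase and HIF target, was below WT in every E6 library, at 51.6 to 59.7 CPM against 70.0 to 83.8 CPM, but under the fold limit (-0.49 ± 0.08, FDR 0.00706).

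None of the called genes sat among neighbours with a like change. The median log2 fold change of well-counted genes within 5 Mb was between -0.18 and 0.10 for the 9 called genes and Car9.

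Split by condition, 5 of the 31 genes were called before adhesion, against 5.01% of all tested genes, and 7 after adhesion, against 8.91%. Those before adhesion were Bnip3l, Narf and Mxi1, lower as were 2.56% of all tested genes, and Pfkfb3 and P4ha2, higher as were 2.45%. After adhesion they were Bnip3, Bnip3l, Ankrd37, Narf and Mxi1, lower as were 4.06%, and Hk2 and Pfkfb3, higher as were 4.85%. By gene, the calls before adhesion were lost in 6 (P4ha2) to 9 (Mxi1) of 16 alternatives. Those after adhesion were lost in 3 (Bnip3, Bnip3l and Narf) to 9 (Hk2 and Pfkfb3). Both counts depended on the libraries. With the 4 libraries compared alone they were 9, where 13.1% of all tested genes were called, and 0, where no gene was called and 1828 had an unadjusted p under 0.05. Without any 1 library they ranged from 0 to 9 before adhesion and from 0 to 11 after it. The 11 came without replicate 2 of WT after adhesion, where 37.7% of all tested genes were called, about the share of the list.

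Of 53 symbols of known HIF targets outside the list, with some genes under 2 symbols, 39 were tested. Of these, 3 were called lower and 3 higher, shares near the 6.13% and 5.22% of all tested genes, with a median log2 fold change of 0.06. Ddit4, an inhibitor of mTORC1, was lower (-2.30 ± 0.33, FDR 0.00412). Ddit4 was at 165, 183, 67.1 and 161 CPM in the WT libraries and at 54.4, 26.7, 15.8 and 25.3 CPM in those of E6. Edn1, the vasoconstrictor endothelin 1, was higher (0.81 ± 0.11, FDR 0.00296), and Cdkn1b, a cell cycle inhibitor, was lower (-0.81 ± 0.23, FDR 0.0464). In Cdkn1b, replicate 1 of WT after adhesion was at 278 CPM and the other 3 WT libraries at 126 to 136 CPM.

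The second comparison, after against before adhesion, addresses which of these genes differed when thymocytes were attached. In WT no gene was called (0.00% of all tested genes), where an unadjusted p under 0.05 was reached by 873 genes and DESeq2 called 59, none of them on the list. In E6, 2 of the 31 genes were called, P4ha1 and Narf, both lower after adhesion. In E6, 2.00% of all tested genes were called, 1.93% higher and 0.0771% (9 genes) lower. Averaged over E6 and WT, P4ha1 and Narf were again the 2 called, lower as were 12 genes in all (0.103%), where 1.89% of all tested genes were called and 1.79% were higher.

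P4ha1 was at 54.8 and 55.5 CPM in WT before adhesion, 30.8 and 41.7 CPM in WT after adhesion, 44.9 and 47.0 CPM in E6 before adhesion, and 25.5 and 25.3 CPM in E6 after adhesion. The libraries after adhesion were below those before it in both cell types. The log2 fold change was -0.91 ± 0.13 in E6 (FDR 0.0211), a 1.87-fold lower level, and -0.58 ± 0.13 in WT (FDR 0.368), and averaged it was -0.74 ± 0.09 (FDR 0.0117). For Narf, whose levels are given above, it was -1.20 ± 0.19 in E6 (FDR 0.0264), a 2.30-fold lower level, -0.39 ± 0.18 in WT (FDR 0.620) and -0.79 ± 0.13 averaged (FDR 0.0298). In the averaged contrast the call of P4ha1 was lost in 7 of 16 alternatives and that of Narf in 9, among them the 12 h libraries alone, in which no gene was called and 2360 had an unadjusted p under 0.05. Leaving out any 1 library other than those of WT after adhesion also ended the E6 calls of both genes.

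Without the fold and FDR limits, the list leaned towards lower levels after adhesion. Negative log2 fold changes were found for 26 of 31 genes in the averaged contrast, with a median of -0.22 against 0.00 for all tested genes. Both libraries after adhesion were below both before it, in WT and also in E6, for 14 of 31 genes, where 4.73% of all tested genes did so. These were 10 of the 13 tested enzymes (Gpi1, Pfkl, Pfkp, Aldoa, Tpi1, Gapdh, Pgk1, Pgam1, Pkm and Ldha) with Ankrd37, P4ha1, Narf and Higd1a. Apart from P4ha1 and Narf, none passed the FDR limit, and the lowest FDR among the enzymes was 0.123 for Pfkp (-0.34 ± 0.08). Without replicate 1 of WT after adhesion, the count was 16, where 8.28% of all tested genes did so. The summed thymocyte markers, and Lyz2 and Emr1 of the myeloid ones, were higher after adhesion, while Csf1r was lower, as given above. The epithelial markers Epcam, Cdh1, Krt8 and Krt14 had log2 fold changes of -0.07, -0.03, -0.09 and -0.23 in E6. In WT they had 0.13, 0.13, -0.13 and -0.44. Krt18, Krt5, Foxn1 and Ly75 of the same marker list lay between -0.09 and 0.23 in E6 and between -0.28 and 0.15 in WT. H2-Aa and H2-Ab1, also on that list, were higher after adhesion, at 7.23 and 7.37 in E6 and 3.64 and 5.42 in WT. Both rested on few reads, with a mean log2 CPM of -2.00 and -1.70. Whether less mRNA per mTEC or a larger share of RNA from other cells made up the lower levels was not tested.

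**Figure D4:**
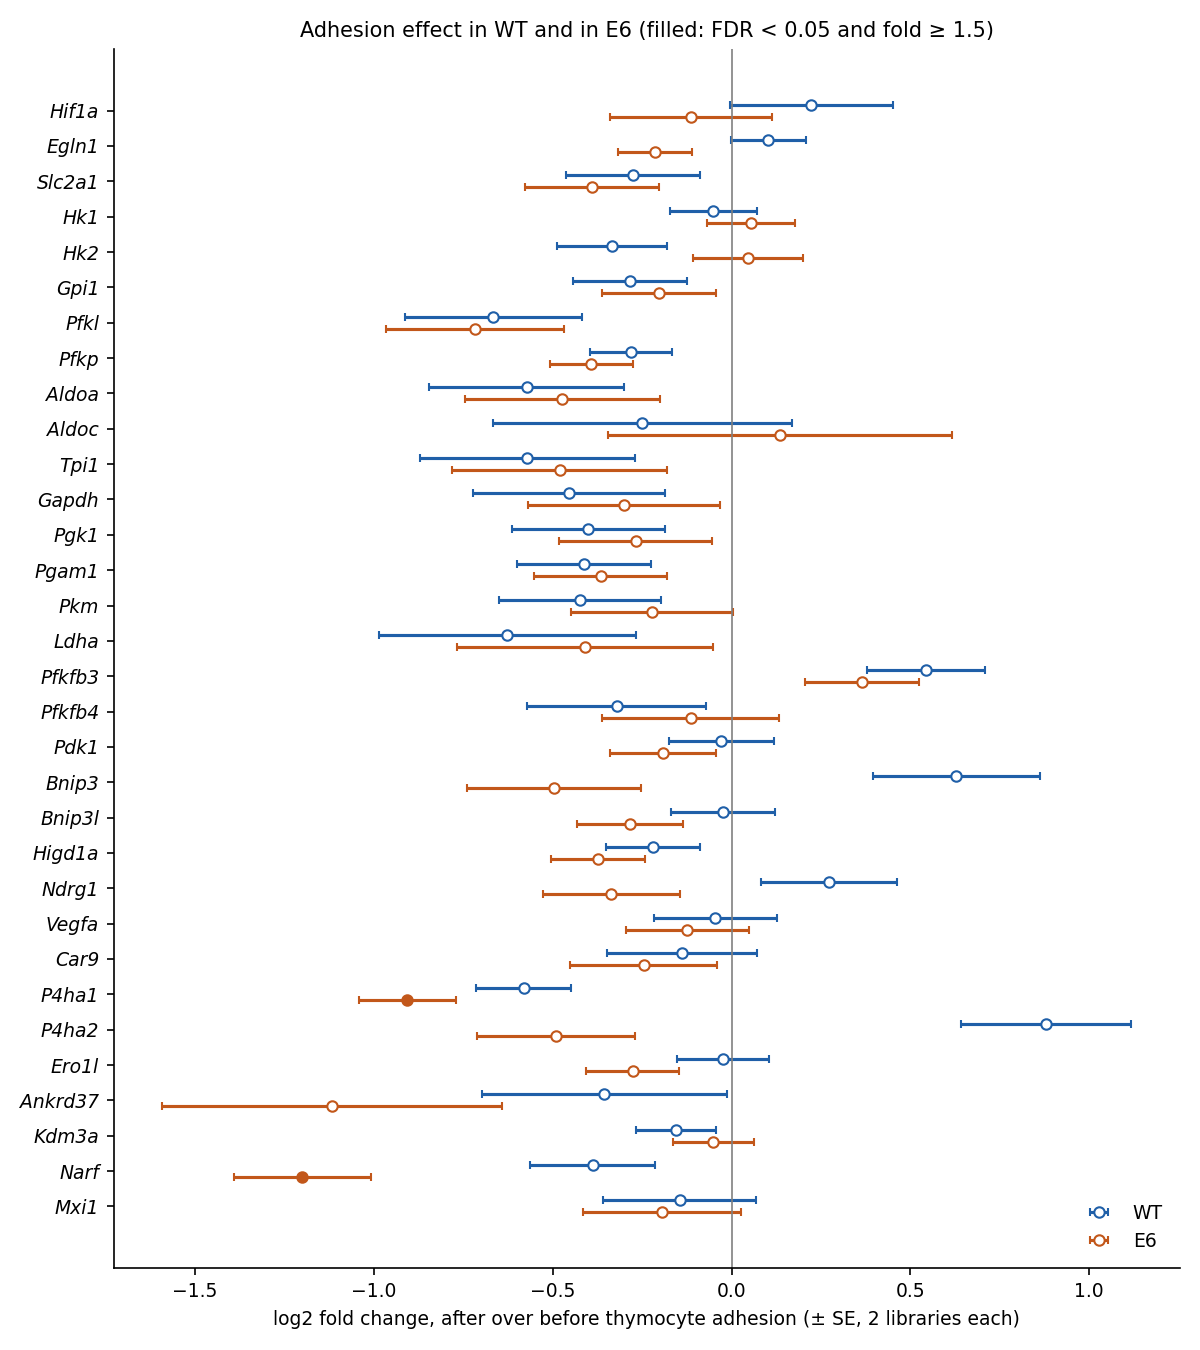
Log2 fold change after over before thymocyte adhesion in WT (blue) and in E6 (orange) for the 31 tested genes and Car9, with SE bars (2 libraries against 2). Filled points passed FDR under 0.05 and a fold of at least 1.5, which are Narf (-1.20) and P4ha1 (-0.91) in E6. Most points of the enzymes lie left of 0 in both cell types, and Bnip3 and P4ha2 lie on opposite sides.

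The WT libraries after adhesion disagreed about the size of this difference. Replicate 1 was the lowest of the 8 libraries for 10 of the 13 tested enzymes. It held 347 CPM of Ldha, 202 CPM of Tpi1 and 216 CPM of Aldoa, where replicate 2 held 953, 473 and 461 CPM. The 13 enzymes made up 0.625% of all counts on genes in replicate 1 and 1.20% in replicate 2, against 1.24% and 1.27% in WT before adhesion, 1.01% and 1.00% in E6 before adhesion, and 0.863% and 0.852% in E6 after adhesion. The enzymes had a median GC content of 52.6%, compared with 49.6% for all tested genes, and replicate 1 was the library with the steep GC slope. The median of the enzymes for adhesion in WT was -0.41 in all libraries, -0.35 with the GC correction, -0.12 without replicate 1 and -0.86 without replicate 2. In E6 it was -0.30 and stayed between -0.33 and -0.27 in every alternative.

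Without replicate 2 of WT after adhesion, 14 of the 31 genes were called for adhesion in WT, and so were 29.8% of all tested genes. Among the 14 were Ldha (-1.45), Tpi1 (-1.23), Pfkl (-1.18) and Aldoa (-1.15). Without replicate 1, 2 were called, Bnip3 (0.86) and P4ha2 (0.98), where 1.74% of all tested genes were. Each of these values rests on a single WT library after adhesion, which is assumed to vary like the libraries of the other conditions.

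**Figure D5:**
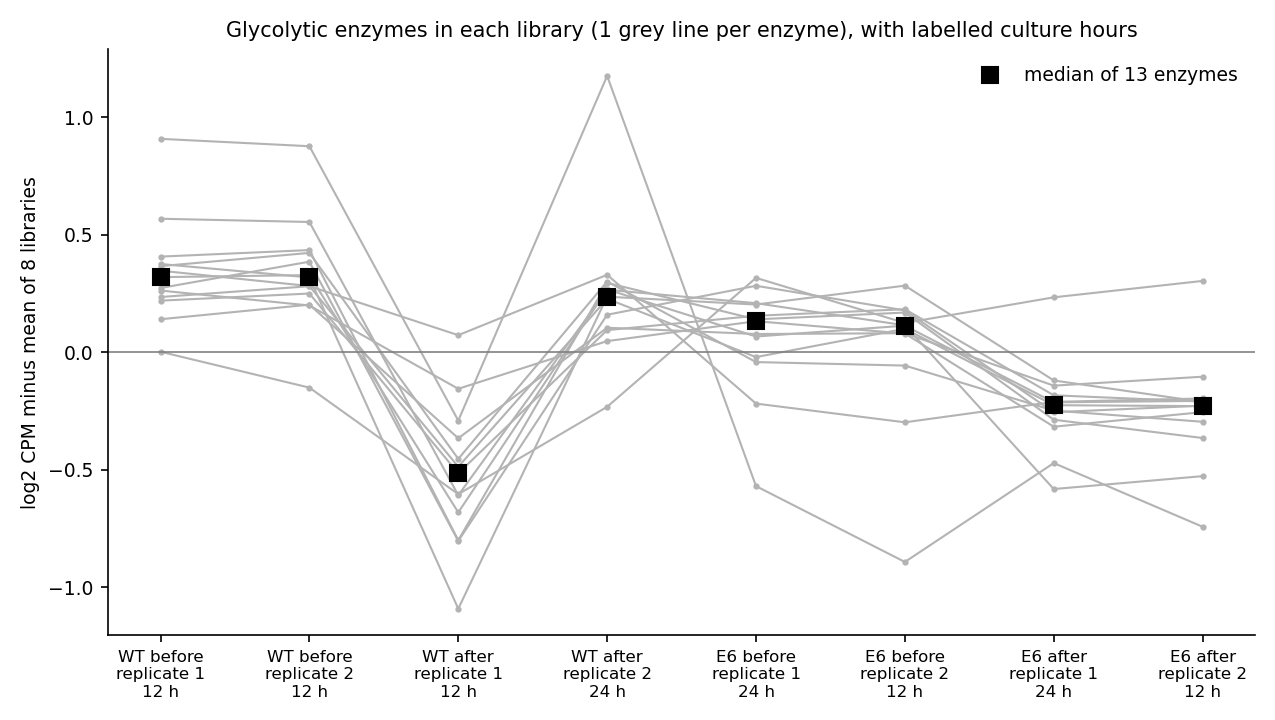
Log2 CPM of each of 13 tested glycolytic enzymes minus its mean over the 8 libraries (grey lines, 1 per enzyme) and the median of the enzymes (black squares), by library and labelled culture hours. The median is lowest in replicate 1 of WT after adhesion (-0.51) and near -0.22 in both E6 libraries after adhesion.

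Culture hours in the labels differ within 3 of the 4 conditions, so 24 h and 12 h could be compared inside them. Within WT after adhesion, all 13 enzymes were higher at 24 h, by a median of 0.75 on the log2 scale. Of all tested genes, 50.7% were higher at 24 h there. Within E6 before adhesion 7 of 13 were higher at 24 h with a median of 0.01, against 49.1% of all tested genes. Within E6 after adhesion 6 of 13 were higher with a median of -0.01, against 54.3%. The pattern in WT was therefore absent from the pairs in E6. In a model with culture hours, none of the 31 genes and none of all tested genes was called (0.00%), 237 genes had an unadjusted p under 0.05, and DESeq2 called 0. The median of the enzymes for 24 h over 12 h was 0.27 in all libraries, 0.12 with the GC correction and 0.02 in the E6 libraries alone. In WT after adhesion, culture hours and the differences between these 2 libraries in GC slope and in share of alignments on genes cannot be told apart.

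The difference between the adhesion effects in E6 and in WT was tested as an interaction. None of the 31 genes was called, as was no gene at all (0.00%), where 297 genes had an unadjusted p under 0.05 and DESeq2 called 2. The largest differences on the list were in P4ha2 (-1.37 ± 0.32) and Bnip3 (-1.12 ± 0.34), each with an FDR of 0.988. In both, the 2 WT libraries after adhesion were above the 2 before it, while the 2 E6 libraries after adhesion were below, and 3.98% of all tested genes moved in opposite directions in this way.

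Ldhb and Cxcr4, outside the list, were chosen after their values were seen. Ldhb, the heart form of lactate dehydrogenase, and Cxcr4, a chemokine receptor and HIF target that thymocytes also express, had 0 counts in both E6 libraries before adhesion and 86 and 44 (Ldhb) or 30 and 46 (Cxcr4) counts after it. Against a floor of 3 counts over the group, Ldhb was at least 44.4-fold and Cxcr4 at least 25.9-fold higher. In WT, Ldhb had 4 and 4 counts before and 23 and 17 after adhesion, and Cxcr4 0 and 1 before and 8 and 8 after. Both were higher where the thymocyte markers were higher, and the part of thymocyte RNA in these counts was not tested.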

How the data were processed

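RNA-Seq was done on mTEC 3.10 (WT) and clone E6, before and after thymocyte adhesion. The authors aligned reads to mm10 with STAR 2.5.0a and deposited HTSeq gene counts without normalization. The annotation and strand setting are not given in the sources used here. The list of genes, the lists beside it and the tests were chosen with earlier results of these data known. Date-like entries in place of 18 symbols were replaced by the symbol that the other files give on that line. Lines that name no gene (21.2% to 33.3% of alignments) were left out.

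Counts were fitted with edgeR 4.0.16 (R 4.3.3) by the quasi-likelihood method, with filterByExpr, TMM scaling and 1 mean per condition over 8 libraries. SE is the absolute log2 fold change divided by the square root of F, and log2 CPM used a prior count of 2. CPM in the text is counts per 1000000 counts on genes, and 3 counts correspond to 0.149 to 0.222 CPM, a floor that covers counting error only. Named genes are all listed genes, those called or being Hif1a or Epas1 with every value, and up to 4 called genes of each other list by size, where the mean log2 CPM was 1 or more. A gene that this rule names in another list is not reported here. For neighbours and chromosome medians this minimum was 2. Exon lengths, positions and GC content are from GENCODE vM21. Alternatives were RLE scaling, DESeq2 1.42.0, no count filter, no fold limit, GC correction (lowess, span 0.3), a replicate block, culture hours, subsets of libraries and leaving out each library. The procedure was tested on simulated data. Figures were drawn with matplotlib 3.10.9.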

Additional observations from a re-analysis of the deposited data

Results flagged for a closer look

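Bnip3 and P4ha2 were singled out because both WT libraries after adhesion lay above both before it and both E6 libraries below, as 3.98% of all tested genes did in one direction or the other. Adhesion was not called for either gene in WT (FDR 0.620 and 0.519) or in E6 (FDR 0.896 and 0.787). The adhesion effect in E6 minus that in WT was -1.12 on the log2 scale for Bnip3 and -1.37 for P4ha2. The test of this difference did not pass the limit for either gene (FDR 0.988 with edgeR's quasi-likelihood test). Without replicate 1 of WT after adhesion, the difference was -1.33 for Bnip3 and -1.43 for P4ha2, and without replicate 2 it was -0.80 and -1.21. All 4 values were called, where 1.22% and 25.6% of all tested genes were called for this difference. They describe a pattern for which the genes had been chosen, and rest on a single WT library after adhesion that is assumed to vary like the other libraries. The cause was not tested.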

How the results depend on the processing

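Counts of listed genes called, out of 31, depended on the libraries more than on scaling, and so did the shares of all tested genes, given in brackets. With RLE scaling and with the GC correction no count of the 8 comparisons moved by more than 1.5 times. For E6 against WT averaged, the 9 became 5 in the 12 h libraries alone (6.30%) and 14 with no fold limit (20.9%), and 5 to 11 without any 1 library, with 5 without WT before adhesion replicate 1 (5.61%) or E6 after adhesion replicate 2 (5.82%) and 11 without WT after adhesion replicate 2 (21.4%). Before adhesion, the 5 became 9 with the 4 libraries compared alone (13.1%) and 0 to 9 without any 1 library, being 9 without either library of WT after adhesion (12.7%) and 0 without any of the other 6 (0.310% to 1.47%). After adhesion the 7 became 0 with the 4 libraries alone and 0 to 11 without any 1 library, being 0 without either E6 library after adhesion (0.227% and 0.361%), 3 or 4 without any library before adhesion (2.84% to 3.82%) and 11 without replicate 2 of WT after adhesion (37.7%). For adhesion, the count was 2 in E6 and 1 with culture hours in the model (1.22%), with 0 to 3 without any 1 library. Averaged over E6 and WT it was 2, then 1 with culture hours (1.06%) and 0 in the 12 h libraries alone (no gene called), with 0 to 7 without any 1 library, the 7 without replicate 2 of WT after adhesion (11.2%). Both adhesion counts were 0 without any library other than those of WT after adhesion. Adhesion in WT gave 0 to 14 and the difference of the adhesion effects 0 to 12 without any 1 library, the highest of each without replicate 2 of WT after adhesion (29.8% and 25.6%) and 2 in each without replicate 1 (1.74% and 1.22%). For culture hours the count was 0 in all alternatives. The cause of these changes was not tested. In an alternative added after seeing the data, without replicate 1 of WT after adhesion, E6 and WT did not overlap in 20 of the 31 genes in place of 12, where 47.5% of all tested genes did so in place of 31.3%.

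Replicate numbers were shared by all conditions, and in E6 the number goes with the labelled culture hours. The deviations of same-numbered libraries over 9768 genes correlated at 0.222 in WT, -0.0794 in E6 and -0.0469 to 0.0232 between the cell types, so the numbers were not taken as pairs. With the replicate block the counts were 2 before adhesion (3.28%), 4 after adhesion (6.18%), 1 for adhesion in E6 (1.13%) and 1 for adhesion averaged (1.19%), and the other counts stayed as they were. For E6 against WT averaged, no listed gene that passed the FDR limit changed sign in any alternative, while 10 of the 17 listed genes that did not pass it did so in at least 1. The motif share of listed genes was 57.1% with ACGTG alone and 91.4% with either core. Low counts limit the 6 untested genes and Ankrd37, and any difference in Aire. For Eno1, reads that matched several places were also not counted, as given above.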
